A study of Mus musculus with 22 samples.

Results

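The transcripts of 6 genes of the periportal hepatocyte programme were followed through the livers of Fah-/- mice: Sds, Hal, Gls2, Cyp2f2, Hsd17b13 and Aldh1b1. These 6 genes were chosen by name, as periportal hepatocyte genes outside the urea cycle, among the 18716 genes of the deposited table, and all 6 passed the filter on low values. The choice was made with earlier results of these data known. RNA came from 22 whole livers of mice that were all Fah-/-, so the recipients in every group shared that deletion. Livers that received a transplant may also hold RNA of transplanted cells, so their RNA need not all be Fah-/-. In the YC group (7 livers, day 28) mice had received a transplant of td-hepatocytes and were given YC over the 28 days that followed withdrawal of NTBC. In the vehicle group (8 livers, day 28) mice had the same transplant and the same withdrawal, with vehicle in place of YC. The D0 group (7 livers) is labelled normal liver of the same genotype at day 0. The labels spell out neither YC nor td, and they give no age or sex. The study asked whether YC acts on transplanted hepatocytes through dedifferentiation. Nothing in the labels says that replicates came from separate animals, so a p-value here speaks only of the scatter among these libraries, part of which may be technical.

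Hepatocytes along the liver lobule divide their work by position, an arrangement called zonation. Those near the portal vein receive blood rich in oxygen and nutrients and specialise in breaking down amino acids, making glucose and making urea, whereas those near the central vein specialise in glutamine synthesis and in the metabolism of foreign compounds. Wnt signals from the central vein turn on the pericentral programme and hold the periportal one back. Fah encodes the last enzyme of tyrosine breakdown, and NTBC protects Fah-/- hepatocytes by blocking an earlier step of that pathway.

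Among the 6, 3 break down amino acids: Sds converts serine to pyruvate and ammonia, Hal takes the first step of histidine breakdown, and Gls2 is the liver form of glutaminase, which releases ammonia from glutamine for the urea cycle. The other 3 have different roles: Cyp2f2 is a cytochrome P450 that oxidises small aromatic compounds, Hsd17b13 is a lipid droplet enzyme of the hydroxysteroid dehydrogenase family, and Aldh1b1 is a mitochondrial aldehyde dehydrogenase. In the GENCODE annotation of mm10, Sds has 8 exons at chr5:120476526-120483932 on the plus strand, and its paralog Sdsl lies 3715 bases away with 0 protein-coding genes between them. Hal has 19 exons at chr10:93488768-93519304 on the plus strand, and Gls2 has 18 exons on the same chromosome and strand at chr10:128194457-128210004. Cyp2f2 has 10 exons at chr7:27119909-27133660 on the plus strand, Aldh1b1 has 2 exons at chr4:45799022-45804604 on the plus strand, and Hsd17b13 has 7 exons at chr5:103955440-103977410 on the minus strand. Its paralog Hsd17b11 lies 12351 bases from Hsd17b13, again with 0 protein-coding genes between. Sds overlaps Plbd2 and Gm15690, Cyp2f2 overlaps Gm15883 and Gls2 overlaps Spryd4, each on the other strand, and without knowing whether strand was used, reads of such pairs cannot be told apart.

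Promoter windows, from 250 bases before to 50 bases after the start of the gene, were found for 4 of the 6 genes in RefSeq (GRCm38.p6): Hal, Cyp2f2, Hsd17b13 and Aldh1b1. The RefSeq start of Cyp2f2 and that of Hsd17b13 lie downstream of the GENCODE starts, so those windows are placed on the RefSeq start and not on the coordinates given above. Shown are Hal, which held the only matches to the motifs searched, Cyp2f2, the gene of the 6 that fell most in YC livers, and Aldh1b1, the one that rose. Capitals mark motif matches, on the strand of the gene.
Hal, chr10:93488518-93488817, plus strand: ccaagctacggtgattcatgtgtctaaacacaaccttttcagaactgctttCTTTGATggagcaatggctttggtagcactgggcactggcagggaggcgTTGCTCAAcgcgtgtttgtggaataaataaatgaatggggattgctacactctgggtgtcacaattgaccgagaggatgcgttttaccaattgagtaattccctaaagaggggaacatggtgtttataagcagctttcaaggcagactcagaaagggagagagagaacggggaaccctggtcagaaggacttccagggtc
Cyp2f2, chr7:27119705-27120004, plus strand: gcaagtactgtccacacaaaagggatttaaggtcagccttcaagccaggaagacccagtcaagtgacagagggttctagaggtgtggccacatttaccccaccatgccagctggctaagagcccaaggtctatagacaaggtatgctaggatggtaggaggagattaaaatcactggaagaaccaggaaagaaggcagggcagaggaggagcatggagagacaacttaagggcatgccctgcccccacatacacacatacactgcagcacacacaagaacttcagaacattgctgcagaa
Aldh1b1, chr4:45798772-45799071, plus strand: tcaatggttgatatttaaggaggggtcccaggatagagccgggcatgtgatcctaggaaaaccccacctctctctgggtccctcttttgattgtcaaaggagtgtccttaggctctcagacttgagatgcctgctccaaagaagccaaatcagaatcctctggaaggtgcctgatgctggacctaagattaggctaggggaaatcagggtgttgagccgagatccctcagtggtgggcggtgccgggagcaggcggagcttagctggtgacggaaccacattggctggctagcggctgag
Both strands were searched for CAAAGTCCA (HNF4), CTTTGAT (TCF/LEF, the factors that act for Wnt signals), TTGCNNAA (C/EBP) and TGACGTCA (CREB). Among all 32851 RefSeq windows of this length, CAAAGTCCA stood in 0.475%, CTTTGAT in 3.73%, TTGCNNAA in 10.8% and TGACGTCA in 1.79%. The Hal window held CTTTGAT beginning at position -199 and TTGCTCAA beginning at position -150, counted from the start of the gene, and the 2 do not overlap. These letters were not in the windows of Cyp2f2, Hsd17b13 or Aldh1b1. A match is a description of letters, not of a bound site.

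Values are RPKM, reads scaled to transcript length and library size, as the authors deposited them. Depth, read from the steps of the lowest values, was 50260000 to 82640000 in YC, 51000000 to 71920000 in vehicle and 51000000 to 66100000 in D0 libraries, in reads or fragments. Hepatocyte markers were abundant throughout: 8 of them (Alb and Apoa1 among them) summed to 39674 to 75287 RPKM in YC, 76211 to 110663 in vehicle and 63851 to 82179 in D0 livers. The highest YC sum lay below the lowest vehicle sum. The part of this difference in the levels of the 6 genes was not tested. The Fah transcript ranged over 31.5 to 407 RPKM in YC, 271 to 542 RPKM in vehicle and 21.1 to 38.7 RPKM in D0 livers, and values per gene cannot show which exons the reads came from. Livers YC 6 and YC 7 had 41.3 and 31.5 RPKM of Fah, near the D0 level, so results are also given without them. Transcripts of 4 Y-linked genes summed to 17.4 to 31.9 RPKM in YC 1, YC 2 and YC 3 and to 0 in YC 4 to YC 7. They summed to 5.55 to 35.6 in all 8 vehicle livers and to at most 0.0454 in D0 livers. In a transplanted liver they may come from recipient or transplanted cells. Between vehicle and D0, sex, transplant, NTBC withdrawal and the 28 days cannot be told apart. Y-linked transcripts were also unevenly spread between YC and vehicle livers. Prss2, a trypsinogen of the exocrine pancreas, reached 135 RPKM in YC 4 and 65.3 in vehicle 1 and was at most 0.409 elsewhere, and those livers were also left out together in one alternative. Bile duct markers (7 genes) summed to 121 to 344 RPKM in YC, 129 to 347 in vehicle and 32.8 to 57.2 in D0 livers, most of it Spp1 (90.0 to 312 RPKM in YC, 113 to 314 in vehicle and 25.3 to 44.9 in D0 livers). Neutrophil markers (6 genes) summed to 35.4 to 360.5 RPKM in YC, 38.9 to 144 in vehicle and 4.05 to 55.8 in D0 livers. All 6 rose in YC minus D0 (median log2 3.29) and in vehicle minus D0 (2.04), and 3 rose in YC minus vehicle (1.21; 2 after median-ratio scaling). Macrophage markers (7 genes) summed to 317 to 843 RPKM in YC, 467 to 1228 in vehicle and 114 to 219 in D0 livers. Of these, 6 rose in YC minus D0 (median 1.53) and 6 in vehicle minus D0 (1.66), while in YC minus vehicle 0 passed as deposited and 4 fell after median-ratio scaling. The part of these cells in the differences between day 28 and D0 livers was not tested. In bulk RNA, fewer cells of a type and less RNA per cell cannot be told apart.

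The 6 genes did not move as a block. Between YC and vehicle, Cyp2f2, Gls2 and Hsd17b13 fell, Aldh1b1 rose, and Sds and Hal did not pass the test, on the log2(RPKM + 0.5) scale with limma at an adjusted p under 0.05. Of the 12537 genes tested, 50.7% were called in that comparison, 44.6% higher and 6.14% lower, and the 6 genes had 3 lower and 1 higher beside this background of mostly higher calls. Between vehicle and D0, Sds rose and the other 5 did not pass, where 58.1% of all genes were called, 28.2% higher and 29.9% lower. Between YC and D0, Sds and Aldh1b1 rose, Cyp2f2 and Hsd17b13 fell, and Hal and Gls2 did not pass, where 53.4% of all genes were called, 41.2% higher and 12.3% lower. The median log2 difference of the 6 genes was -0.45 between YC and vehicle, 0.16 between vehicle and D0 and -0.50 between YC and D0, beside medians of 0.31, 0.00 and 0.25 over all genes tested. Over 8 general hepatocyte markers the same medians were -0.40, 0.26 and -0.16. The ranges of YC and vehicle livers overlapped for all 6 genes, where 7.08% of all genes had ranges that do not overlap. The comparisons share their vehicle or D0 libraries and are not independent of each other.

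The balance of higher and lower calls over all genes depends on the scaling. With the values as deposited, 5587 genes were higher and 770 lower in YC than in vehicle livers, and after median-ratio scaling, which sets the typical gene level, 2336 were higher and 2076 lower. For YC minus D0 the counts were 5162 higher and 1537 lower as deposited and 3372 and 3401 after that scaling. The median over all genes moved to 0.02 for YC minus vehicle and to -0.02 for YC minus D0. Relative to that typical gene, the falls were steeper, with Cyp2f2 at -1.36, Gls2 at -1.17, Hal at -0.92 and Hsd17b13 at -0.66 for YC minus vehicle, all 4 called, while the gain of Aldh1b1 shrank to 0.34 (limma adjusted p = 0.253) and was not called.

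**Figure D1:**
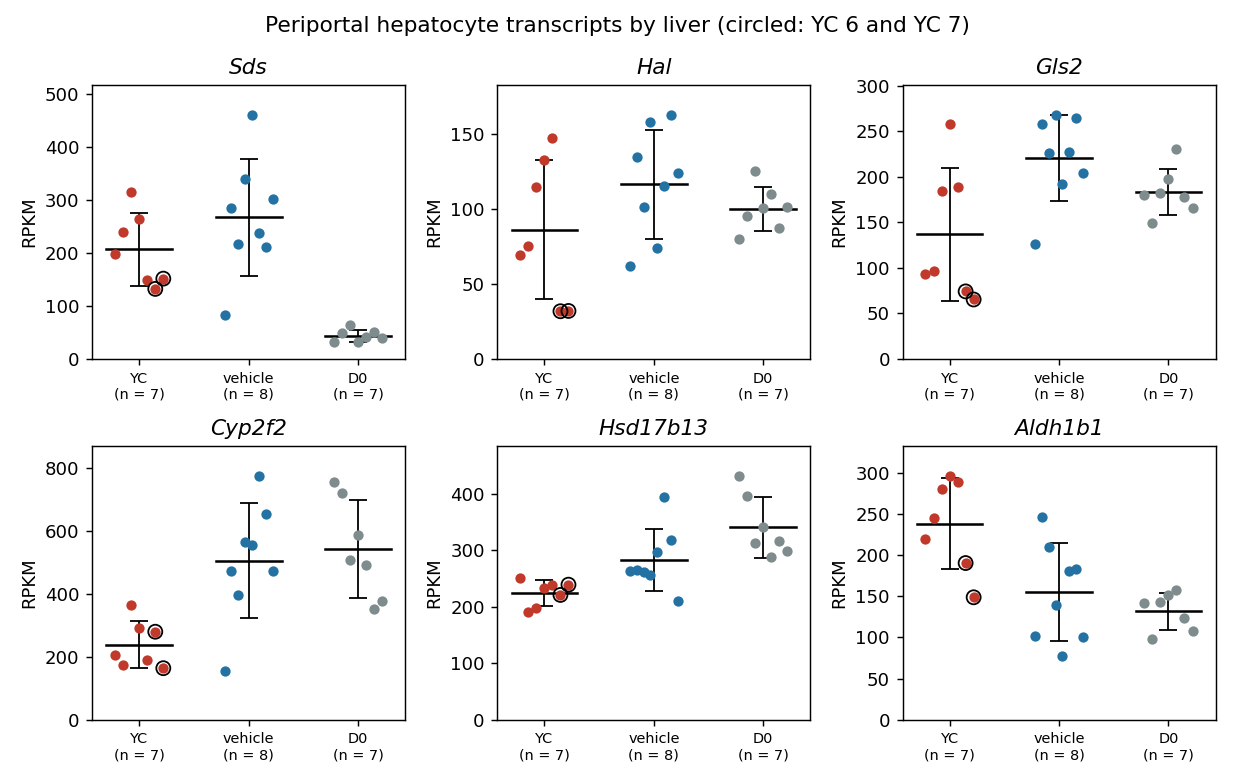
RPKM (vertical axis, from 0, a separate scale for each gene) of the 6 periportal genes in every liver, with 1 point per liver, group means as bars and SD as whiskers, for YC (n = 7), vehicle (n = 8) and D0 (n = 7). Sds is high in both day 28 groups, Cyp2f2 sits at 164 to 364 in YC livers, and YC 6 and YC 7 (circled) are the lowest livers for Hal and Gls2.

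Sds, which turns serine into pyruvate for glucose synthesis, set the day 28 livers apart from D0. It was at 133 to 316 RPKM (median 199) in YC livers, 83.3 to 460 (median 262) in vehicle livers and 31.3 to 63.6 (median 41.4) in D0 livers. Every day 28 liver, with or without YC, lay above every D0 liver, and the lowest of them, vehicle 1, stood well under the other 7 vehicle livers, which began at 212. Sds averaged 268 ± 110 RPKM over the 8 vehicle livers and 44.1 ± 11.4 over the 7 D0 livers (SD), a 5.63-fold rise (log2 2.49 ± 0.27 SE, limma adjusted p = 7.9e-08). Over the 7 YC livers it averaged 207 ± 68.6 (SD), 4.58-fold above D0 (log2 2.19 ± 0.27 SE, limma adjusted p = 5.27e-07). The 4 YC livers without Y-linked transcripts, YC 4 to YC 7, had 133 to 264 RPKM of Sds, also above every D0 liver. Groups that do not overlap were found for 22.9% of all genes in vehicle minus D0 and for 23.6% in YC minus D0. Between YC and vehicle, Sds differed by log2 -0.30 ± 0.27 SE (limma adjusted p = 0.357), and all 7 YC livers lay inside the vehicle range. It was called without vehicle 1, at -0.52, and without vehicle 1 and YC 4 together, at -0.59 (adjusted p = 0.0245), and over all alternatives that p ran up to 0.967. Among the YC livers with Y-linked transcripts alone it was 0.02.

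The paralog beside it on chromosome 5, Sdsl, a second serine and threonine dehydratase, was at 20.4 to 43.1 RPKM (median 26.5) in YC livers, 9.81 to 26.7 (median 22.8) in vehicle livers and 9.27 to 21.1 (median 12.1) in D0 livers. It rose between vehicle and D0 by log2 0.62 ± 0.20 SE (limma adjusted p = 0.0107), with overlapping groups, and its difference of 0.47 ± 0.20 SE between YC and vehicle did not pass (limma adjusted p = 0.0533). Sdsl was called in 5 of 22 fits that leave out 1 library (D0 3, vehicle 3, 6 or 7, or YC 7), with differences of 0.32 to 0.55 over all 22, and also with an equal total, with library weights, without YC 6 and YC 7 and with the Y-linked YC livers alone, while it was 0.13 and not called after median-ratio scaling. The log2 ratio of Sds to Sdsl within a liver does not depend on how libraries were scaled, beyond the pseudocount. It averaged 2.78 ± 0.45 in YC livers, 3.55 ± 0.53 in vehicle livers and 1.68 ± 0.22 in D0 livers (SD). The ratio rose by 1.88 between vehicle and D0 (exact permutation p = 0.000311, adjusted 0.00175 over 18 ratio tests) and by 1.11 between YC and D0 (exact permutation p = 0.000583, adjusted 0.00175), without overlap, and these are the smallest p these designs allow. Between YC and vehicle the ratio fell by 0.77 (exact permutation p = 0.0121, adjusted 0.0241), with overlapping groups. That call was lost without YC 6 and YC 7, where the difference was -0.71.

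Of the 7 other genes of serine, threonine and glycine breakdown, 1 rose, 0 fell and 6 did not pass between YC and vehicle, with a median log2 difference of -0.10. After median-ratio scaling 1 rose, 3 fell and 3 did not pass, with a median of -0.44. The one that rose was Gldc, the decarboxylase of the glycine cleavage system, at 148 ± 43.2 RPKM in YC livers and 64.2 ± 23.1 in vehicle livers (SD), a log2 difference of 1.21 ± 0.20 SE. Gldc moved the other way between vehicle and D0, by -0.53 ± 0.20 SE (limma adjusted p = 0.0283), a call that was lost without D0 1, 2 or 4 or vehicle 4 or 5. In vehicle minus D0, 1 of the 7 rose and 2 fell, and between YC and D0, 2 rose and 1 fell as deposited and 1 rose and 4 fell after median-ratio scaling.

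Hal, the histidase that makes urocanate from histidine, was spread widely among YC livers and narrowly at D0. It was at 31.9 to 147 RPKM (median 75.5) in YC livers, 62.3 to 163 (median 120) in vehicle livers and 80.3 to 126 (median 101) in D0 livers. YC 6 and YC 7, at 31.9 and 32.1, lay below every liver of the other groups, whereas YC 5 and YC 4, at 147 and 133, lay above every D0 liver. The mean was 86.3 ± 46.5 in YC livers and 117 ± 36.3 in vehicle livers (SD), a log2 difference of -0.58 ± 0.29 SE that did not pass (limma adjusted p = 0.0933). It was called after median-ratio scaling, at -0.92, with library weights, at -0.49, and without vehicle 1 and YC 4, at -0.84 (adjusted p = 0.0153, the lowest). It was also called without vehicle 1 alone, at -0.70, without YC 4, at -0.72, and without YC 5, at -0.75. Without YC 6 and YC 7 it was -0.10, and that adjusted p of 0.71 is the highest over all alternatives. Neither vehicle minus D0 (0.16 ± 0.29 SE) nor YC minus D0 (-0.42 ± 0.30 SE) passed.

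The enzymes that follow Hal in histidine breakdown showed the same pair of low livers. Uroc1, which takes the next step, was at 22.8 to 205 RPKM (median 83.1) in YC livers, 106 to 162 (median 139) in vehicle livers and 100 to 132 (median 121) in D0 livers. Amdhd1, which opens the imidazolone ring, was at 30.9 to 138 (median 51.8) in YC livers, 83.9 to 204 (median 145) in vehicle livers and 59.6 to 120.0 (median 95.9) in D0 livers. Ftcd, which passes the last carbon to folate, was at 31.6 to 181 (median 123) in YC livers, 118 to 182 (median 141) in vehicle livers and 92.3 to 129 (median 112) in D0 livers. For all 3, YC 6 and YC 7 were the lowest livers of the whole series, and for Uroc1 YC 4 was the highest. YC 1 and YC 2 also lay below every vehicle and D0 liver for Uroc1 (81.6 and 83.1) and for Amdhd1 (50.8 and 51.8). Between YC and vehicle, 2 of these 3 fell: Amdhd1 by log2 -1.09 ± 0.29 SE (limma adjusted p = 0.00342) and Uroc1 by -0.82 ± 0.33 SE (limma adjusted p = 0.0418), and Ftcd at -0.60 ± 0.29 SE did not pass (limma adjusted p = 0.0838). The Uroc1 call was lost in 10 of 22 fits that leave out 1 library (vehicle 2, 4, 5, 6, 7 or 8, or YC 1, 2, 6 or 7), and Ftcd was called without YC 3 or without YC 4. Without YC 6 and YC 7 the differences were -0.67 for Amdhd1, -0.17 for Uroc1 and -0.01 for Ftcd. After median-ratio scaling all 3 fell between YC and vehicle. In vehicle minus D0 and in YC minus D0, 0 of the 3 passed, and after that scaling 2 fell between YC and D0.

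**Figure D2:**
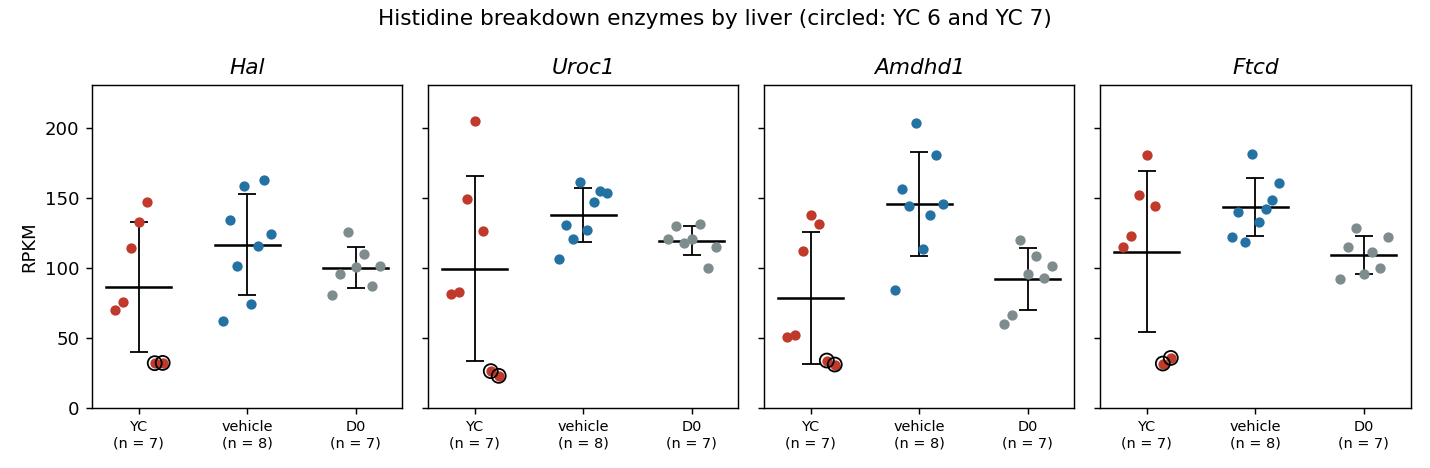
RPKM (vertical axis, shared, from 0) of Hal, Uroc1, Amdhd1 and Ftcd, 4 enzymes of histidine breakdown, in every liver of the YC (n = 7), vehicle (n = 8) and D0 (n = 7) groups, with means as bars and SD as whiskers. YC 6 and YC 7 (circled) lie at 22.8 to 35.6 for all 4, under every other liver, and the other 5 YC livers spread into the range of the vehicle livers.

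Gls2, the glutaminase that feeds ammonia into the urea cycle, fell in YC livers. It was at 65.4 to 258 RPKM (median 96.4) in YC livers, 126 to 267 (median 227) in vehicle livers and 149 to 231 (median 180.4) in D0 livers. Of the 7 YC livers, 4 lay below every vehicle and every D0 liver, and the other 3, YC 3, YC 4 and YC 5, lay within the vehicle range. The mean was 137 ± 73.2 in YC livers and 221 ± 47.2 in vehicle livers (SD), a 1.77-fold fall (log2 -0.83 ± 0.24 SE, limma adjusted p = 0.00656). Without YC 6 and YC 7 it was -0.51 and no longer called (adjusted p = 0.0547, the highest over all alternatives). Against D0 the difference of -0.58 ± 0.25 SE did not pass (limma adjusted p = 0.0519), but it passed under median-ratio scaling at -0.89, quantile normalization at -0.68 and library weights at -0.63. It also passed without D0 2 (-0.63), vehicle 1 (-0.58), YC 3 (-0.68), YC 4 (-0.76) or YC 5 (-0.69), and when YC 1, YC 2 and YC 3, the livers with Y-linked transcripts, stood for the YC group (-0.62), and it was -0.26 without YC 6 and YC 7. Vehicle and D0 livers differed by 0.25 ± 0.24 SE (limma adjusted p = 0.389).

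Within the YC group the livers stood in the same tiers for Gls2 and for Fah. YC 7 and YC 6 had 65.4 and 74.3 RPKM of Gls2 and 31.5 and 41.3 RPKM of Fah. YC 1 and YC 2 had 93.3 and 96.4 RPKM of Gls2 and 105 and 128 RPKM of Fah. YC 3 and YC 5 had 184 and 189 RPKM of Gls2 and 290 and 291 RPKM of Fah, and YC 4 was highest for both, with 258 and 407. These tiers were not particular to Gls2. Hal was at 31.9 and 32.1 RPKM in YC 6 and YC 7, 69.6 and 75.5 in YC 1 and YC 2, and 115 to 147 in YC 3 to YC 5. Amdhd1 was at 30.9 and 33.8, 50.8 and 51.8, and 112 to 138 in the same sets. Fah itself differed by log2 -1.61 between YC and vehicle, and by -1.89 to -1.28 when each library in turn was left out. This order was noticed in the data and is given as a description. The part of the Fah level in the Gls2 level was not tested.

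Against Glul, the pericentral enzyme that runs the opposite reaction, the log2 ratio of Gls2 averaged -0.38 ± 0.93 in YC livers, 0.45 ± 0.54 in vehicle livers and 1.04 ± 0.38 in D0 livers (SD). It fell by 1.42 between YC and D0 (exact permutation p = 0.00233, adjusted 0.00599) and by 0.59 between vehicle and D0 (exact permutation p = 0.0339, adjusted 0.0469), and the difference of -0.84 between YC and vehicle did not pass (exact permutation p = 0.0522, adjusted 0.0671). Without vehicle 1 and YC 4 the ratio differed by -1.14 between YC and vehicle and passed, and by -0.47 between vehicle and D0 and did not pass. Glul itself averaged 161 ± 32.4 RPKM in YC livers, 162 ± 38.1 in vehicle livers and 90.6 ± 21.8 in D0 livers (SD), and it rose by log2 0.83 ± 0.18 SE between vehicle and D0 (limma adjusted p = 0.000317).

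Of the 11 other genes of glutamine and glutamate handling, 3 rose, 1 fell and 7 did not pass between YC and vehicle, and after median-ratio scaling 1 rose and 1 fell. The risers included Slc1a5, a plasma membrane glutamine transporter, at 11.4 ± 5.32 RPKM in YC livers and 3.54 ± 2.44 in vehicle livers (SD), a log2 difference of 1.60 ± 0.29 SE. The one that fell was Slc1a2, a glutamate transporter of pericentral hepatocytes, at 2.87 ± 2.05 in YC livers and 7.89 ± 4.21 in vehicle livers (SD), a difference of -1.35 ± 0.34 SE. Glud1, glutamate dehydrogenase, differed by 0.21 ± 0.10 SE, did not pass, and stood at -0.13 after median-ratio scaling. It was called with an equal total (0.32), with no filter, with library weights and without vehicle 1. Between YC and D0, 7 of the 11 rose and 1 fell as deposited and 4 rose and 1 fell after median-ratio scaling, and between vehicle and D0, 3 rose and 0 fell.

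Cyp2f2 had the largest fall of the 6 genes in YC livers. It was at 164 to 364 RPKM (median 205) in YC livers, 156 to 774 (median 515) in vehicle livers and 353 to 756 (median 506) in D0 livers. Vehicle 1, at 156, was the lowest liver of all, and the other 7 vehicle livers began at 395, above every YC liver. Against D0, 6 of the 7 YC livers lay below the whole D0 range, and YC 3 at 364 lay inside it. The mean was 238 ± 74.9 over the 7 YC, 505 ± 184 over the 8 vehicle and 542 ± 156 over the 7 D0 livers (SD). The transcript fell 2.03-fold against vehicle (log2 -1.02 ± 0.27 SE, limma adjusted p = 0.00288) and 2.28-fold against D0 (log2 -1.19 ± 0.27 SE, limma adjusted p = 0.000811). Both calls held under every alternative run, among them the 3 YC livers with Y-linked transcripts alone, at -0.99 and -1.16. Vehicle and D0 differed by -0.17 ± 0.27 SE, which did not pass (limma adjusted p = 0.604) and was 0.06 without vehicle 1.

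The pericentral P450 gene Cyp2e1 fell as well, to 436 ± 309 RPKM in YC livers, against 1059 ± 417 in vehicle livers (SD), a log2 difference of -1.45 ± 0.31 SE. The log2 ratio of Cyp2f2 to Cyp2e1 averaged -0.66 ± 0.68 in YC livers, -1.09 ± 1.00 in vehicle livers and -1.23 ± 0.30 in D0 livers (SD), with overlapping groups. Its difference was 0.43 between YC and vehicle (exact permutation p = 0.36, adjusted 0.406) and 0.57 between YC and D0 (exact permutation p = 0.0629, adjusted 0.0755), and neither passed. Without vehicle 1 and YC 4 the YC minus D0 difference was 0.77 and passed.

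Cyp2f2 sits on chromosome 7 among other genes of the Cyp2 family, and these went both ways. Of 9 tested neighbours of the cluster, 4 rose, 3 fell and 2 did not pass between YC and vehicle. Cyp2s1, a P450 found mainly outside the liver, was at 26.4 ± 14.3 RPKM in YC livers and 1.68 ± 1.09 in vehicle livers (SD), a log2 difference of 3.62 ± 0.34 SE without overlap. Such separation was found for 7.08% of all genes in YC minus vehicle. Cyp2a4, a liver steroid hydroxylase in the mouse, was at 2584 ± 1354 RPKM in YC livers and 939 ± 195 in vehicle livers (SD), a difference of 1.28 ± 0.27 SE. Cyp2g1 rose by 1.39 ± 0.26 SE. Cyp2 genes are close in sequence, so the level of a member with a near-identical copy, such as Cyp2a4, is uncertain. Between vehicle and D0, and again between YC and D0, 3 of the 9 rose and 4 fell.

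Hsd17b13, a lipid droplet protein of hepatocytes, varied least of the 6 over the 22 livers. It was at 190.3 to 251 RPKM (median 233) in YC livers, 210.4 to 395 (median 265) in vehicle livers and 288 to 431 (median 317) in D0 livers. All 7 YC livers lay below all 7 D0 livers, and 5 of the 8 vehicle livers did too. In YC minus D0, 23.6% of all genes had groups that do not overlap. The mean was 224 ± 22.6 in YC livers, 283 ± 54.8 in vehicle livers and 340 ± 53.4 in D0 livers (SD). It fell 1.51-fold between YC and D0 (log2 -0.59 ± 0.14 SE, limma adjusted p = 0.000802). The fall of log2 -0.32 ± 0.13 SE between YC and vehicle passed narrowly (limma adjusted p = 0.0459), and its adjusted p ran from 0.00157 to 0.173 over the alternatives. The call was lost under quantile normalization (-0.25), rescaling to an equal total (-0.21), only the 2 groups (-0.32), without YC 6 and YC 7 (-0.34), with only the Y-linked YC livers 1 to 3 (-0.40) and in 14 of 22 fits that leave out 1 library. Vehicle and D0 differed by -0.27 ± 0.13 SE, which did not pass (limma adjusted p = 0.0808), though it was called at -0.40 under quantile normalization, at -0.37 with an equal total and at -0.34 without vehicle 6. The fits that lost the YC minus vehicle call left out D0 3, 4, 6 or 7, vehicle 2 to 7, or YC 2, 3, 5 or 6, with differences of -0.38 to -0.25 over all 22.

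Its chromosomal neighbour Hsd17b11, a related lipid droplet dehydrogenase, moved the other way. Hsd17b11 was at 107 to 264 RPKM (median 200.5) in YC livers, 76.8 to 120.0 (median 93.3) in vehicle livers and 85.3 to 119 (median 96.8) in D0 livers. It rose between YC and vehicle by log2 0.88 ± 0.17 SE (limma adjusted p = 0.000164), and YC 4 lay inside the vehicle range. The log2 ratio of Hsd17b13 to Hsd17b11 averaged 0.31 ± 0.51 in YC livers, 1.51 ± 0.18 in vehicle livers and 1.75 ± 0.11 in D0 livers (SD). The highest YC liver, at 1.12, lay below the lowest vehicle liver, at 1.23. The ratio fell by 1.20 between YC and vehicle (exact permutation p = 0.000311, adjusted 0.00175), by 1.44 between YC and D0 (exact permutation p = 0.000583, adjusted 0.00175) and by 0.25 between vehicle and D0 (exact permutation p = 0.00808, adjusted 0.0182). The first 2 passed under every alternative run for them, with differences of -1.50 to -1.14 against vehicle and -1.75 to -1.38 against D0.

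Of 15 other lipid droplet and hydroxysteroid dehydrogenase genes, 5 rose, 1 fell and 9 did not pass between YC and vehicle, with a median log2 difference of 0.12, and after median-ratio scaling 4 rose and 3 fell, with a median of -0.07. Cidec, which promotes the growth of lipid droplets, was at 96.5 ± 56.6 RPKM in YC livers and 13 ± 5.06 in vehicle livers (SD), a difference of 2.62 ± 0.37 SE. Abhd5, the activator of the droplet lipase, rose by 1.23 ± 0.22 SE, and Plin2, a droplet coat protein, at 0.42 ± 0.22 SE, did not pass, though it was called under quantile normalization, with an equal total, with library weights and without YC 4. In vehicle minus D0, 6 of the 15 rose and 1, Abhd5, fell (-0.87). Between YC and D0, 6 rose and 0 fell as deposited and 5 rose and 2 fell after median-ratio scaling.

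Aldh1b1, which oxidises aldehydes in mitochondria, was the only one of the 6 that rose in YC over vehicle livers. It was at 149 to 296 RPKM (median 245) in YC livers, 77.6 to 246 (median 160.1) in vehicle livers and 97.6 to 157 (median 141) in D0 livers. Of the 7 YC livers, 6 lay above the whole D0 range, and YC 7 was the exception. Only YC 3, YC 4 and YC 5 exceeded the highest vehicle liver. The mean was 238 ± 55.3 in YC livers, 155 ± 59.5 in vehicle livers and 132 ± 22.5 in D0 livers (SD). It rose 1.61-fold against vehicle (log2 0.68 ± 0.22 SE, limma adjusted p = 0.0113) and 1.78-fold against D0 (log2 0.83 ± 0.22 SE, limma adjusted p = 0.00301). After median-ratio scaling the YC minus D0 difference was 0.52 and not called (adjusted p = 0.0689), as was the smaller one against vehicle. Vehicle and D0 differed by 0.15 ± 0.22 SE (limma adjusted p = 0.565). Bile duct cells also express aldehyde dehydrogenases, and of 6 tested bile duct markers 2 rose and 0 fell between YC and vehicle, with a median of 0.40, while after median-ratio scaling 0 passed. Those that rose were Krt19, a keratin of bile duct cells, by log2 1.08 ± 0.37 SE (limma adjusted p = 0.0191) and Sox9, a transcription factor of these cells, by 0.53 ± 0.15 SE (limma adjusted p = 0.00499). Krt19 was at 4.22 to 30.1 RPKM (median 20.9) in YC livers, 3.12 to 14.2 (median 6.91) in vehicle livers and 0.832 to 2.84 (median 1.62) in D0 livers, with YC 1, YC 2, YC 3 and YC 5 above every vehicle liver. Against D0, all 6 tested markers rose in YC livers and 4 rose in vehicle livers. The part of bile duct cells in the Aldh1b1 level was not tested.

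Aldh2, the main mitochondrial acetaldehyde dehydrogenase, fell where Aldh1b1 rose. Aldh2 was at 277 to 579 RPKM (median 386) in YC livers, 341 to 699 (median 543) in vehicle livers and 593 to 848 (median 722) in D0 livers. It fell by log2 -0.40 ± 0.16 SE between YC and vehicle (limma adjusted p = 0.0372) and by -0.42 ± 0.16 SE between vehicle and D0 (limma adjusted p = 0.0263), with overlapping groups. The YC minus vehicle call was lost in 9 of 22 fits that leave out 1 library (vehicle 2, 4, 7 or 8, or YC 1, 2, 5, 6 or 7), and the vehicle minus D0 call without D0 3 or without vehicle 1. The log2 ratio of Aldh1b1 to Aldh2 averaged -0.80 ± 0.19 in YC livers, -1.89 ± 0.55 in vehicle livers and -2.46 ± 0.23 in D0 livers (SD). Every YC liver, from -1.01 up, lay above every vehicle liver, which reached -1.22. The ratio rose by 1.09 between YC and vehicle (exact permutation p = 0.000311, adjusted 0.00175), by 1.66 between YC and D0 (exact permutation p = 0.000583, adjusted 0.00175) and by 0.57 between vehicle and D0 (exact permutation p = 0.0267, adjusted 0.0401). The last of these was 0.55 without vehicle 1 and YC 4 and no longer passed.

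In the wider aldehyde dehydrogenase family the count of higher and lower genes depended on the scaling. Of 14 other tested members, 4 rose, 3 fell and 7 did not pass between YC and vehicle as deposited, with a median log2 difference of -0.20, and after median-ratio scaling 2 rose, 8 fell and 4 did not pass, with a median of -0.54. Aldh3a2, which oxidises fatty aldehydes, rose by 0.92 ± 0.15 SE without overlap, as 7.08% of all genes had groups that do not overlap in YC minus vehicle. Aldh18a1, an enzyme of proline synthesis, rose by 0.67 ± 0.14 SE from a low level (1.97 ± 0.55 RPKM in YC livers and 1.04 ± 0.26 in vehicle livers, SD). Aldh1a1, a retinal dehydrogenase, rose by 0.85 ± 0.24 SE as deposited and was not called at 0.51 after that scaling. Its mean was 1852 RPKM in YC, 917 in vehicle and 1668 in D0 livers. Of these 3, Aldh3a2 (-0.55) and Aldh1a1 (-0.87) fell between vehicle and D0, and Aldh18a1 (0.82) rose. Between vehicle and D0, 2 of the 14 rose and 6 fell, and between YC and D0, 3 rose and 5 fell as deposited and 2 rose and 8 fell after median-ratio scaling.

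**Figure D3:**
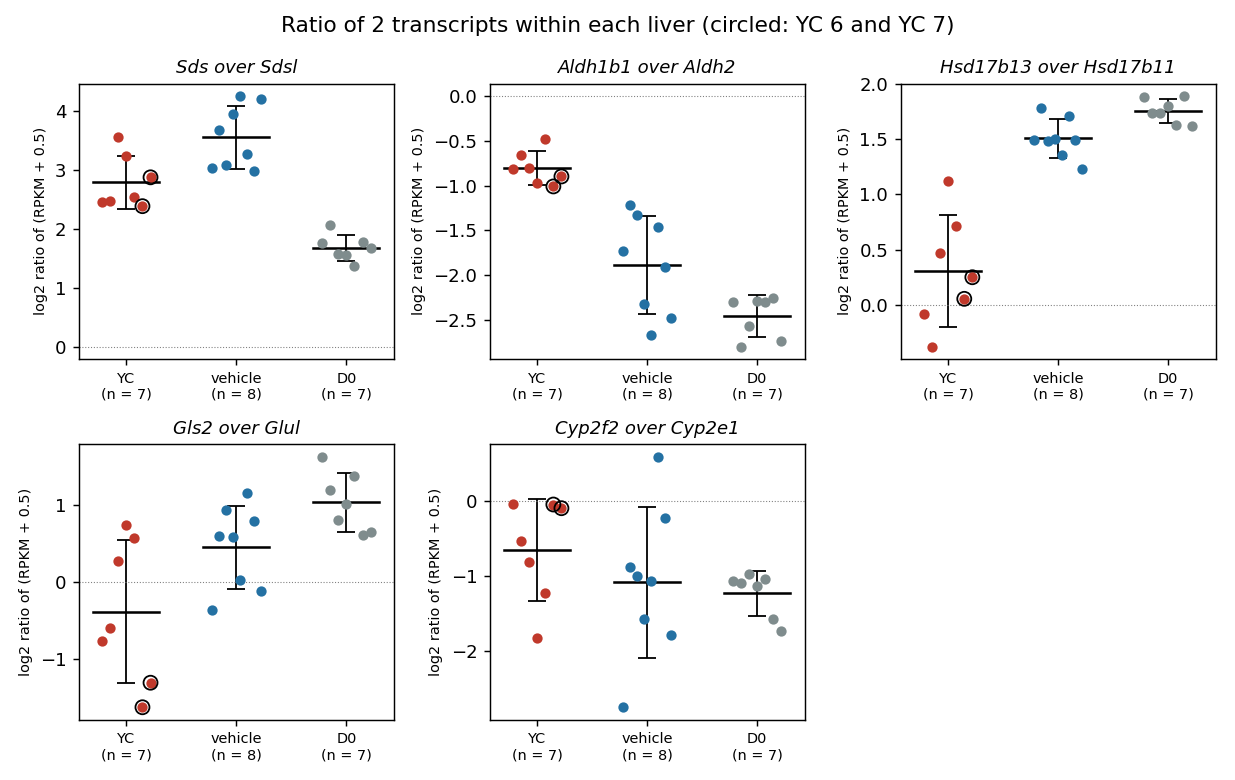
Log2 ratio of (RPKM + 0.5) of a periportal gene to its paralog or to a pericentral gene (vertical axis, a separate scale for each ratio), with 1 point per liver, means as bars and SD as whiskers, for YC (n = 7), vehicle (n = 8) and D0 (n = 7). YC livers do not overlap the vehicle livers for Aldh1b1 over Aldh2 and for Hsd17b13 over Hsd17b11, while these 2 groups overlap for the other 3 ratios.

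**Figure D4:**
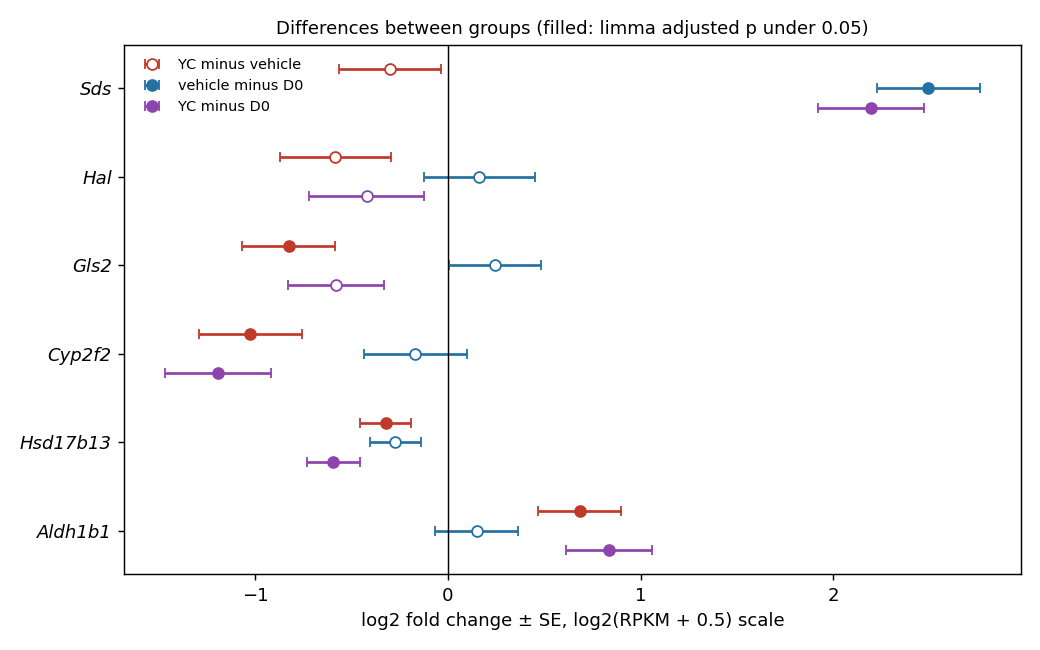
Log2 fold change (horizontal axis) of the 6 genes in the 3 comparisons of YC, vehicle and D0 livers, with SE as whiskers and filled points where limma's adjusted p was under 0.05. Sds stands at 2.49 and 2.19 in the comparisons with D0, and Cyp2f2 and Aldh1b1 take opposite signs in YC minus vehicle.

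Other zonated genes, of the periportal and of the pericentral side, were also called in both directions between YC and vehicle livers. Of 13 other periportal genes, 2 rose, 2 fell and 9 did not pass between YC and vehicle, with a median log2 difference of -0.13. After median-ratio scaling 2 rose, 6 fell and 5 did not pass, with a median of -0.47. Cdh1, the E-cadherin of periportal hepatocytes, was at 42.9 ± 11 RPKM in YC livers and 14.5 ± 4.90 in vehicle livers (SD) and rose by 1.56 ± 0.20 SE without overlap. Such separation was found for 7.08% of all genes. The part of bile duct cells in the Cdh1 level was not tested. Apoa4, a lipoprotein component, rose by 1.73 ± 0.24 SE, Alb, the main plasma protein gene, stood at -1.10 ± 0.21 SE and fell, and Ass1 of the urea cycle, at -0.66 ± 0.31 SE, did not pass. Ass1 was called lower after median-ratio scaling, with library weights and without vehicle 1, YC 3, YC 4 or YC 5, and it ran from -0.89 to -0.47 when each library in turn was left out. Of 12 pericentral genes, 2 rose, 6 fell and 4 did not pass, with a median of -0.79, and after median-ratio scaling 1 rose and 6 fell. Rgn, a calcium-binding protein, fell by 2.34 on the log2 scale (SE 0.44), and Tbx3, a transcription factor, rose by 1.18 ± 0.27 SE. Among 8 general hepatocyte markers, 1 rose, 4 fell and 3 did not pass, with a median of -0.40. After median-ratio scaling 0 rose and 5 fell, with a median of -0.74, beside -0.79 for the 6 periportal genes. Alb is counted both among these 8 and among the 13 other periportal genes, so the 2 counts are not separate.

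In vehicle minus D0, 5 of the 13 other periportal genes rose and 2 fell, with a median of 0.52, and 5 of the 12 pericentral genes rose and 1 fell, with a median of -0.13. Between YC and D0, 3 of the 13 periportal genes rose and 4 fell, with a median of 0.19, and 3 of the 12 pericentral genes rose and 4 fell, with a median of -0.03. Of 14 regulators of zonation, 8 rose and 0 fell between YC and vehicle with the values as deposited, with a median of 0.34, close to the 0.31 of all genes. After median-ratio scaling 2 rose, 3 fell and 9 did not pass, with a median of 0.03. Znrf3, a Wnt target that removes Wnt receptors, was at 2.28 ± 0.21 RPKM in YC livers and 1.14 ± 0.35 in vehicle livers (SD) and rose by 0.79 ± 0.13 SE. Lgr4, a receptor that strengthens Wnt signals, rose by 0.66 ± 0.17 SE, Ctnnb1, which encodes beta-catenin, rose by 0.45 ± 0.11 SE, and Cebpa, at -0.25 ± 0.17 SE, did not pass. Under that scaling Znrf3 was still called at 0.53, Lgr4 at 0.33 and Ctnnb1 at 0.11 were not, and Cebpa was called lower at -0.59. Between vehicle and D0, 2 of the 14 regulators rose and 8 fell, among them Znrf3 (-0.97), Lgr4 (-0.68) and Ctnnb1 (-0.33). Znrf3 was at 1.94 to 2.56 RPKM in YC livers, inside the 1.87 to 3.32 of D0 livers. Between YC and D0, 1 of the 14 rose and 2 fell as deposited and 0 rose and 6 fell after median-ratio scaling.

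**Figure D5:**
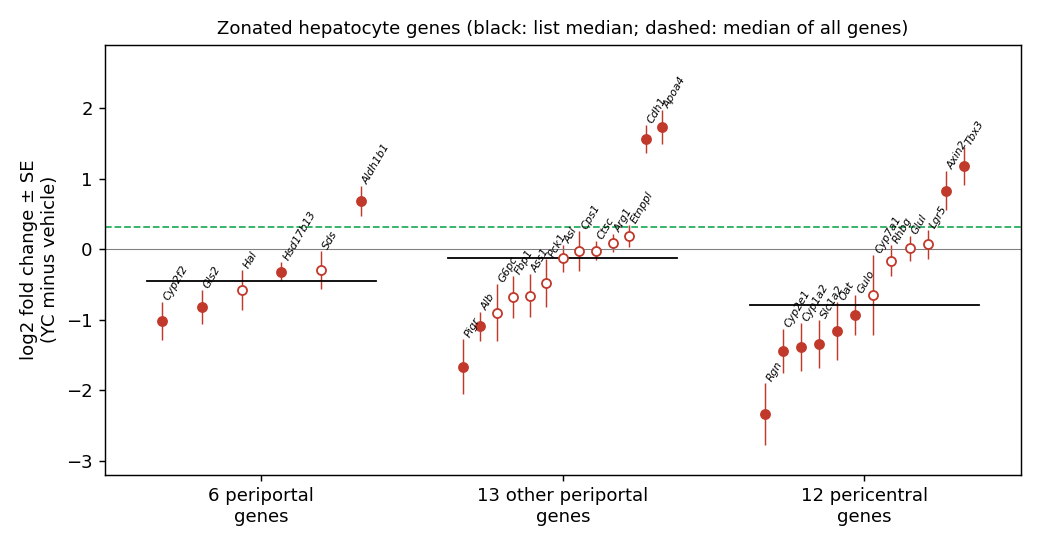
Log2 fold change of YC minus vehicle (vertical axis) with SE for the 6 periportal genes, 13 other periportal genes and 12 pericentral genes, 1 point per gene, filled where limma's adjusted p was under 0.05. Black bars are list medians (-0.45, -0.13 and -0.79), and the dashed line is the median of all genes tested, 0.31.

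Likeness of pattern was measured as the root mean square difference of centred log2 values over the 22 libraries, among the 7262 tested genes that averaged 5 RPKM or more. Genes are not independent replicates, and all of them share these libraries and their depth. For Sds, whose own spread on that measure was 1.22, the nearest were Mfsd2a, a lipid transporter, at 0.42, and Oaf at 0.44. Oaf was at 79.5 ± 34.1 RPKM in YC livers, 125 ± 27.8 in vehicle livers and 27.2 ± 5.81 in D0 livers (SD), above D0 in both day 28 groups without overlap, as Sds was. Among all genes, 22.9% (vehicle minus D0) and 23.6% (YC minus D0) had groups that do not overlap. For Hal (own spread 0.61) the nearest were Naprt, an enzyme of NAD synthesis, at 0.24, and the folate enzyme Aldh1l1 at 0.25. Aldh1l1 was also nearest to Gls2 (own spread 0.57), at 0.19, followed by Hpd, the enzyme that NTBC blocks, at 0.20. For Cyp2f2 (own spread 0.73) the nearest were Sugct at 0.42 and the apolipoprotein gene Apoa2 at 0.43. For Hsd17b13 (own spread 0.31) they were Foxn3 at 0.21 and Zdhhc6 at 0.22, and for Aldh1b1 (own spread 0.54) Tm6sf2 at 0.30 and Sae1 at 0.32. Hal ranked 16 among the genes nearest to Gls2, and Gls2 ranked 6 among those nearest to Hal.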

How the data were processed

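Liver RNA was extracted with TRIzol, selected for polyadenylated mRNA, fragmented and sequenced, per the labels' protocols. The authors deposited 1 table of RPKM values (18716 rows, 22 libraries). The tools were TopHat 1.4.1 and Cufflinks 1.3.0 on the build mm10, per the submitters' processing notes. Annotation, filters and strand use are not given in sources used here. Of the row names, 27 are gene symbols turned into dates, 2 are repeated and 17858 match GENCODE.

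The steps of low values gave depths of 50260000 to 82640000, but only 31.5% to 38.8% of low values came out as whole reads at a tolerance of 0.02, so no count test was run and no counting interval is given. A gene was tested if 7 or more libraries had 0.5 RPKM or more (12537 genes). The model, on log2(RPKM + 0.5), was that of limma 3.58.1 under R 4.3.3 (robust eBayes with a trend, using statmod 1.5.0), with 3 groups in 1 fit. Genes were called at a Benjamini-Hochberg adjusted p under 0.05, two-sided. Fold changes on this scale understate low genes. Ratios were compared with exact two-sided permutation tests, adjusted over 18 tests, of which those of 1 ratio are not reported here. Other steps used Python 3.11.15. The limma step was tested on simulated data, with independent normal noise for each gene and the same spread in all groups. The spread of these libraries differs between groups, so that test cannot show how reliable the calls here are.

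The 6 genes and all lists were chosen with earlier results of these data known. The text names the 6 genes, Fah, the genes of the ratios, the 3 called genes with the smallest adjusted p and the most abundant gene not called of each list in YC minus vehicle, and the 2 genes most like each of the 6. Alternatives changed the scaling, pseudocount, filter, weights, groups in the model and the libraries used, and added the replicate number as a block. For ratios that block was a sign-flip test of differences between livers of the same number. Promoter windows come from RefSeq.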

Additional observations from a re-analysis of the deposited data

Results flagged for a closer look

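For the 6 genes, their ratios and the related genes, 57 groups were checked for a liver far from the others, and 1 was found. Glul, the pericentral glutamine synthetase, was at 229 RPKM in YC 6, while the other 6 YC livers ended well below it (group mean 161 ± 32.4, SD, n = 7). YC 6 is one of the livers with Fah near the D0 level, and it was the lowest YC liver for Sds and Hal. At the 95% critical value used, chance alone marks some livers among 57 groups.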

How the results depend on the processing

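Genes higher and lower in YC minus vehicle (5587 and 770) were 2336 and 2076 after median-ratio scaling, 2257 and 2109 after quantile normalization, 3210 higher when genes had to average 5 RPKM and 1391 lower with library weights. In vehicle minus D0 (3535 and 3743) they were 1782 and 2279 under that filter. In YC minus D0 (5162 and 1537) they were 3372 and 3401 (median-ratio), 2916 and 3757 (quantile), and 2572 and 988 (that filter). That filter tests fewer genes by construction, and the cause of the other shifts was not tested.

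Of the 6 genes, 0 rose between YC and vehicle after median-ratio scaling, 1 was lower without YC 6 and YC 7, and 5 were lower without vehicle 1 and YC 4. In vehicle minus D0, 1 was lower under quantile normalization and 1 under an equal total. In YC minus D0, 1 was higher after median-ratio scaling. Leaving out each library in turn gave 5029 to 6042 genes higher and 580 to 925 lower in YC minus vehicle, with 1 to 1 of the 6 genes higher and 2 to 5 lower (5 without vehicle 1). It gave 3187 to 3682 higher and 3450 to 4032 lower in vehicle minus D0, with 1 to 1 of the 6 higher and 0 to 1 lower (1 without vehicle 6), and 4726 to 5386 higher and 1372 to 1684 lower in YC minus D0, with 2 to 2 higher and 2 to 3 lower.

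Calls on ratios were lost for Sds over Sdsl in YC minus vehicle without YC 6 and YC 7 (-0.71), with Y-bearing YC livers alone (-0.73) and with the replicate block (-0.68). They were lost without vehicle 1 and YC 4 for Aldh1b1 over Aldh2 (0.55) and Gls2 over Glul (-0.47) in vehicle minus D0. Calls were gained for Gls2 over Glul in YC minus vehicle (-1.14) and Cyp2f2 over Cyp2e1 in YC minus D0 (0.77) without vehicle 1 and YC 4, and for Cyp2f2 over Cyp2e1 also with Y-bearing YC livers alone (0.76). The Y-bearing livers, those with Y-linked transcripts (YC 1 to YC 3), were set apart after seeing the data.

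Signs turned only for differences that were not called, except Glud1. Sds in YC minus vehicle was 0.019 with Y-bearing YC livers alone, and Glul was -0.33 with median-ratio scaling, -0.023 with library weights, -0.10 without YC 6 and YC 7, -0.053 with Y-bearing YC livers alone, and -0.079 to 0.080 when each library in turn was left out. Glud1 with median-ratio scaling was -0.13 against vehicle and -0.066 against D0, where it was called at 0.25 as deposited, a call lost in 16 of 22 fits that leave out 1 library. Zdhhc6 was 0.00082 in YC minus vehicle with an equal total. Cyp2f2 in vehicle minus D0 was 0.13 with library weights, 0.057 without vehicle 1 and YC 4, and -0.27 to 0.057 when each library in turn was left out, and Hal in YC minus D0 was 0.059 without YC 6 and YC 7. The cause was not tested.

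No pairing by replicate number was assumed. Deviations of livers with the same number correlated at -0.39 to 0.21 between YC and vehicle, -0.22 to 0.23 between vehicle and D0 and -0.12 to 0.11 between YC and D0. Livers with different numbers were not compared in this way, so these values cannot show whether the numbers pair the samples. With the number as a replicate block, Gls2 in YC minus D0 was called (-0.58, limma adjusted p = 0.0446). For ratios, the block was a sign-flip test of the differences between livers of the same number, without vehicle 8. The smallest p that test allows is 0.0156, so its lost calls may reflect the test. Under it, ratio calls were lost for Gls2 over Glul (-0.51), Aldh1b1 over Aldh2 (0.66) and Hsd17b13 over Hsd17b11 (-0.21) in vehicle minus D0. No reads per gene could be recovered, so no counting error is given, and precision rests on the spread between 7 or 8 livers a group.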
